A study of Arabidopsis thaliana with 6 samples.

Results

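The SWEET genes of Arabidopsis encode sugar transporters, and 14 of them were measured here among 13356 genes with a probe set that names 1 gene only. Members were all genes whose symbol is SWEET followed by a number, and each had a single such probe set. Of the 17 loci of the family listed for this work, SAG29 (also named SWEET15) and AtVEX1 (also named SWEET5) carry other symbols and are given beside the 14, and SWEET12 was not analysed here. SWEET proteins are uniporters that let sugars cross a membrane down their gradient, without the proton coupling used by sucrose and hexose symporters. By sequence they fall into clades: members of clades I and II are known mainly as carriers of hexoses, those of clade III as carriers of sucrose, and those of clade IV as carriers in the membrane of the vacuole. In leaves, clade III members release sucrose from phloem parenchyma before it is loaded into the phloem.

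The plants were rosettes of cat2-2, a catalase mutant with Col-0 as its background, so both groups lack normal function of the main leaf catalase, and no wild-type arrays were analysed here. The untreated group held 3 biological replicates taken at 0 h from plants aged 21 days, grown with 16 h light and 8 h dark on plates with 1% sucrose, which they shared with plants of a second genotype. The treated group held 3 replicates taken at 24 h, aged 22 days, after the porous tape of the plates had been exchanged for 2 layers of parafilm and the plants had stood in unbroken light, which the submitters name photorespiratory conditions. Each replicate pooled at least 15 rosettes. The change of seal, the change of light regime and the added day of age came together and cannot be told apart, and the labels do not say whether replicates shared a plate. The question is how transcript levels of the SWEET genes differ after this treatment. Levels are log2 values per probe set from RMA, which corrects background, equalises the distributions of arrays and summarises the probes of a set. A difference is treated minus untreated, and errors after ± are standard errors (SE) with n = 3 arrays per group. For single genes the SE is limma's, whose variance draws on all probe sets. For pairs of genes it comes from the pair's own array values only, so the errors of genes and pairs are not comparable. Each adjusted p-value comes from limma's test, corrected by Benjamini and Hochberg's method across the 22746 probe sets, with 0.05 as the threshold. Levels of different probe sets are not comparable on an array as amounts of transcript, so changes, not levels, are compared between genes. Where the levels of a pair of genes are subtracted on an array, only the shift between the groups is read. The brightness of a gene is given as the percentile of its probe set.

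The treatment moved much of the transcriptome, and of all probe sets 41.7% passed the test, 19.4% higher and 22.2% lower, with groups that did not overlap for 50.8%. Array medians lay between 6.22 and 6.27 and correlations of arrays within groups between 0.996 and 0.997. Of the passing probe sets 46.6% were higher, against 69.0% with arrays anchored on the brighter poly(A) spikes and 60.1% on the hybridization controls, settings that raised all differences by 0.15 and 0.11. The 3 measured mesophyll markers RCA, LHCB4.1 and LHCB4.2 were bright, from about the 99.9th percentile upward, with mean levels of 13.97 to 13.98 in untreated and 13.6 to 13.7 in treated arrays. Of these, LHCB4.2 and LHCB4.1 fell (-0.88 and -0.24), and RCA stood at 0.19 (adjusted p = 0.0625). Of markers of other cell types, the root hair genes EXPA7 and EXPA18 lay at the 25.8th and 39.6th percentile, with mean levels of 4.84 to 5.09 in untreated and 4.79 to 4.99 in treated arrays, and neither passed. Of 4 loci on the guard cell list, SPCH fell by 0.49 on the log2 scale (adjusted p = 0.000643), and MUTE (0.11), FMA (0.14) and AT1G22690 (-0.16) did not pass, with mean levels of 6.50 to 6.69 in untreated and 6.47 to 6.54 in treated arrays. No phloem or xylem marker was measured under the rule, so the part of changed tissue makeup in the results below was not tested. In whole rosettes, fewer cells of a type and less RNA per cell cannot be told apart.

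Of the 14 measured SWEET genes 7 changed, beside 41.7% of all probe sets, and they changed in both directions. SWEET2, SWEET1, SWEET11 and SWEET16 rose, by 4.61-fold, 2.16-fold, 1.45-fold and 1.304-fold. SWEET13, SWEET4 and SWEET17 were lower, by 4.34-fold, 3.22-fold and 1.97-fold. The number that changed is thus near the background. Of the 14, 4 passed the test with a change of 2-fold or more, against 8.22% of all probe sets. The median difference of the 14 was -0.02, beside -0.01 over all probe sets, and their median absolute difference was 0.29, beside 0.18. Above the median level, the median absolute difference was 1.04 for SWEET genes, beside 0.33 for all probe sets. Below it, the values were 0.05 and 0.10. The members were chosen with earlier results of these data known, so no enrichment is read from these values. Groups did not overlap for 8 of the 14 genes, the 7 that passed and SWEET3, beside 50.8% of all probe sets. The test used the same arrays, so this is no further support for the 7.

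**Figure D1:**
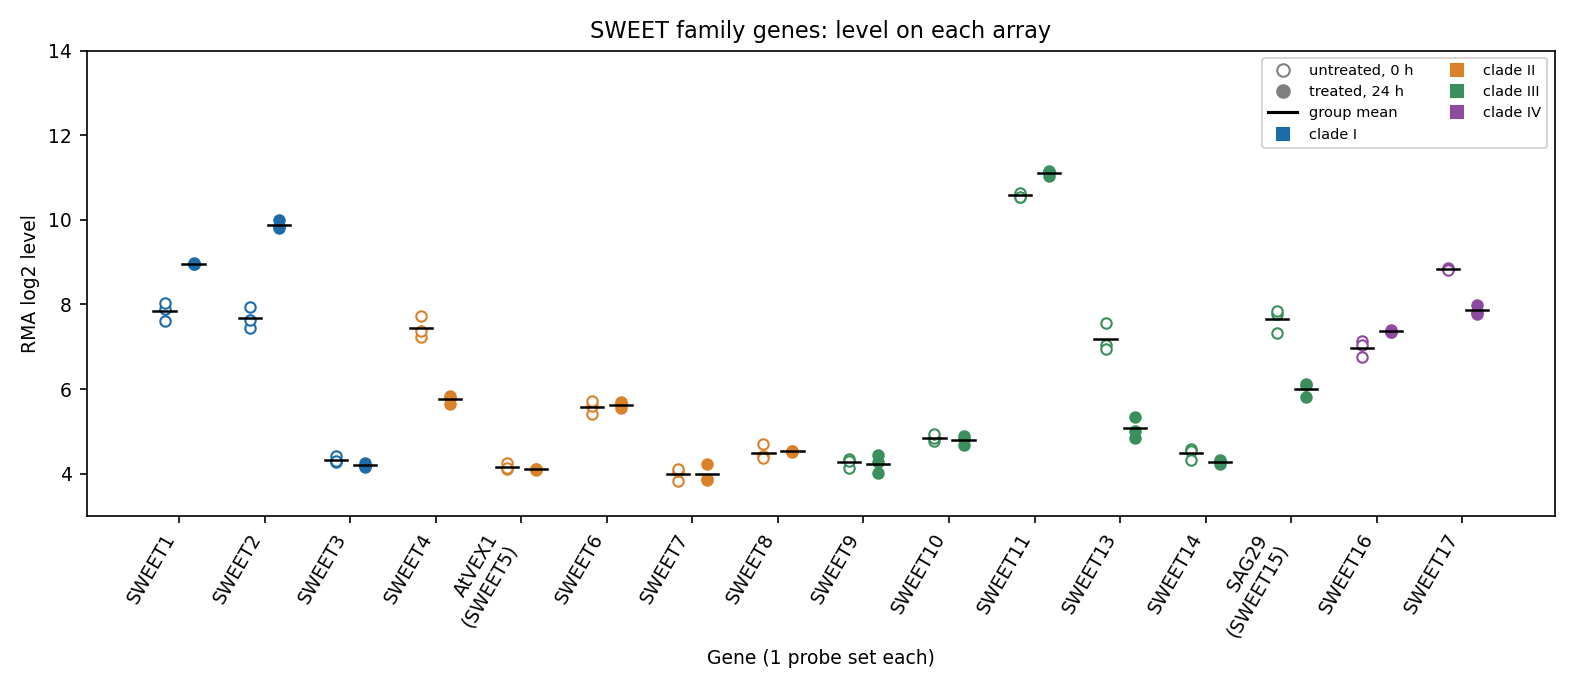
RMA log2 level (y axis) of the 14 SWEET genes and of AtVEX1 and SAG29 (x axis) on each of the 6 arrays. Open points are the 3 untreated and filled points the 3 treated arrays, bars are group means and colours are clades; SWEET2 rises from a mean of 7.68 to 9.88 and SWEET13 falls from 7.19 to 5.07, while the group means of the dim genes lie close together.

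Clade I held the largest increase among the 14 genes. SWEET2, a carrier of the vacuolar membrane known for keeping glucose in root cells, stood at 7.95, 7.45 and 7.64 on the untreated arrays and at 9.85, 9.99 and 9.81 on the treated ones. Every treated array was above every untreated one by more than the spread within either group (SD 0.25 untreated and 0.09 treated). The difference was 2.20 ± 0.12 (adjusted p = 7.63e-08), which took its probe set from the 70.3rd to the 92.6th percentile. SWEET1, a glucose carrier of the plasma membrane, stood at 7.88, 7.62 and 8.04 on the untreated and at 8.98, 8.95 and 8.95 on the treated arrays. The groups did not overlap, and the treated arrays lay within an SD of 0.02. The difference was 1.11 ± 0.10 (adjusted p = 5.25e-06). SWEET3, the third gene of clade I, was dim, at 4.28, 4.42 and 4.29 against 4.18, 4.26 and 4.15. Its treated arrays lay just below its untreated ones, and its difference of -0.13 did not pass (adjusted p = 0.212).

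Clade II held 1 decrease among 4 measured genes. SWEET4, a hexose carrier of the plasma membrane known from leaf veins, stood at 7.23, 7.72 and 7.37 on the untreated arrays and at 5.65, 5.79 and 5.83 on the treated ones. The groups were far apart, and the untreated arrays spread more (SD 0.25 against 0.09). The difference was -1.69 ± 0.12 (adjusted p = 5.48e-07), which took its probe set from the 66.7th to the 44.4th percentile. SWEET6, SWEET7 and SWEET8, the last known from pollen wall formation, had differences of 0.05, -0.02 and 0.04, all with overlapping groups. AtVEX1 (SWEET5), known from the vegetative cell of pollen, stood at -0.07 (adjusted p = 0.562).

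Among the 5 measured genes of clade III, the sucrose carriers, 1 rose, 1 fell and 3 did not pass. SWEET11, which exports sucrose from phloem parenchyma in leaves, had the brightest probe set of the family, at the 96.7th percentile. It stood at 10.54, 10.64 and 10.55 on the untreated arrays and at 11.13, 11.17 and 11.04 on the treated ones. Its increase was small but well outside the spread of the arrays, at 0.54 ± 0.08 (adjusted p = 0.000146). SWEET13, a sucrose carrier that also moves gibberellin and is known from anthers as well as leaves, stood at 7.05, 7.56 and 6.95 on the untreated arrays and at 5.35, 5.01 and 4.85 on the treated ones. It varied most among replicates of the genes that passed (SD 0.33 untreated and 0.25 treated), and its groups still lay far apart. The difference was -2.12 ± 0.16 (adjusted p = 1.11e-06), which took its probe set from the 62.7th to the 35.8th percentile. SAG29 (SWEET15), the clade III carrier named for its induction in leaf senescence, stood at 7.77, 7.85 and 7.31 against 6.11, 5.82 and 6.10. This senescence-associated gene fell by 1.63 ± 0.14 on the log2 scale (adjusted p = 2.20e-06), with groups that did not overlap.

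The other clade III genes were dim and did not pass. SWEET9, the nectary carrier, stood at -0.03, and SWEET10, known as a target of the flowering signal FT, at -0.05. SWEET14, the close relative of SWEET13, stood at 4.59, 4.53 and 4.32 against 4.31, 4.33 and 4.22, and its groups overlapped. The difference was -0.19 ± 0.09 (adjusted p = 0.112), and it passed without untreated replicate 3 (-0.27, adjusted p = 0.0284, where the alternatives ranged from 0.0284 to 0.770). SWEET10 and SWEET13 are neighbours in the gene order of assembly TAIR10.1, with 0 genes between them, and of this pair only SWEET13 passed.

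Of the 2 genes of clade IV, the vacuolar carriers, 1 rose and 1 fell. SWEET17, known as a fructose carrier of the vacuolar membrane, stood at 8.87, 8.85 and 8.81 on the untreated arrays and at 7.78, 7.98 and 7.83 on the treated ones. It varied little among untreated replicates (SD 0.03), and no array crossed between the groups. The difference was -0.98 ± 0.08 (adjusted p = 1.94e-06). SWEET16, which carries glucose, fructose and sucrose in the same membrane, stood at 6.76, 7.15 and 7.04 on the untreated and at 7.40, 7.34 and 7.35 on the treated arrays. The groups did not overlap, but the lowest treated array lay above the highest untreated one by less than the spread of the untreated group (SD 0.20). The difference of 0.38 ± 0.10 was the smallest that passed (adjusted p = 0.00902), and it did not pass without moderation of the variances (adjusted p = 0.0807, where the alternatives ranged from 0.000913 to 0.0807).

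Differences between genes of one clade were also followed on each array, where a shift common to all probe sets of the array cancels. Scaling that depends on level does not cancel. The pairs are those of genes that had passed. For SWEET11 with SWEET13 and for SWEET16 with SWEET17, which moved in opposite directions, the shift restates calls already given. SWEET11 minus SWEET13 was 3.49, 3.08 and 3.61 on the untreated arrays and 5.78, 6.16 and 6.19 on the treated ones, a shift of 2.65 ± 0.21. SWEET16 minus SWEET17 was -2.12, -1.70 and -1.77 on the untreated and -0.38, -0.64 and -0.48 on the treated arrays, a shift of 1.36 ± 0.15. In clade I, where both genes rose, SWEET1 minus SWEET2 was -0.07, 0.16 and 0.41 on the untreated and -0.88, -1.04 and -0.86 on the treated arrays, a shift of -1.09 ± 0.15. The groups of this pair did not overlap. The exact two-sided permutation test gave p = 0.10 for each of the 3 pairs, and 0.10 after adjustment over them. This is the smallest p that 3 against 3 arrays allow and does not reach 0.05.

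**Figure D2:**
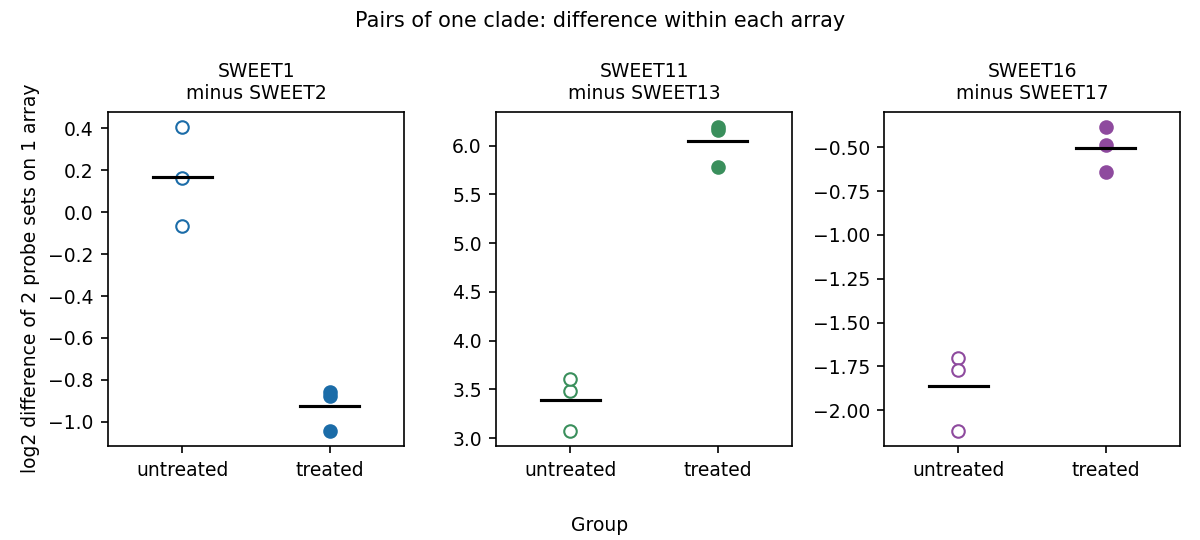
Difference in RMA log2 level between 2 SWEET genes of one clade on the same array (y axis, scales differ between panels) for untreated and treated arrays (x axis). Points are single arrays and bars are group means; the mean moves from 0.17 to -0.93 for SWEET1 minus SWEET2, from 3.39 to 6.04 for SWEET11 minus SWEET13, and from -1.86 to -0.50 for SWEET16 minus SWEET17.

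By level, the genes that passed were mostly the brighter ones. Of the 6 SWEET genes above the median of all probe sets by their mean over all arrays, all 6 passed, 4 higher and 2 lower, against 61.6% of the probe sets above it. Of the 8 below the median, 1 passed, SWEET13 at the 48.2nd percentile, against 21.7% of the probe sets below it. SWEET13 counts as dim here through its own decrease, since its untreated mean lay at the 62.7th percentile. Split by the untreated mean, a setting chosen after seeing the data, 7 of 7 brighter and 0 of 7 dimmer genes passed, against 61.6% and 21.8% of probe sets. This split draws on the arrays where the genes that fell were high. SWEET4 and SWEET13 had treated means at the 44.4th and 35.8th percentile. By its mean over all arrays SWEET4 also lay above the median, at the 54.3rd percentile, only through its untreated arrays (66.7th percentile). Neither split therefore gives support of its own. The 7 genes that did not pass lay between the 15.1st and 42.0th percentile, with single arrays between 3.83 and 5.72. Their differences ran from -0.19 to 0.05, and the 95% intervals of these differences lay between -0.39 and 0.26. Whether these 7 probe sets were above background was not tested, so a change of a transcript that the probes do not detect would not appear in these values.

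**Figure D3:**
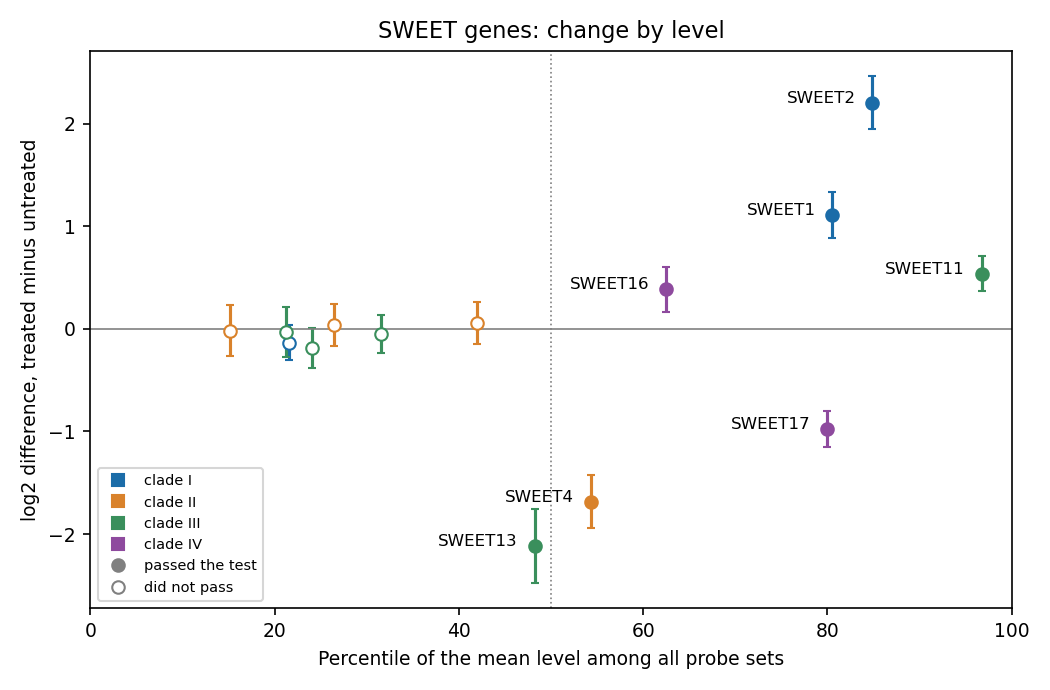
log2 difference, treated minus untreated (y axis), against the percentile of the mean level among all probe sets (x axis) for the 14 SWEET genes, with 95% intervals from limma. Filled points passed the test, open points did not, and the dotted line marks the median probe set; the 7 open points lie between the 15.1st and 42.0th percentile, with differences of -0.19 to 0.05.

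Outside the family, few genes of sugar movement and sucrose metabolism could be tied to a probe set, 14 of 75 listed loci, of which 7 carry a matching symbol in the tables. Among these 7, SFP1 and ATSPS4F rose, and TMT2, SFP2 and TMT1 fell. SFP1, a sugar porter of the ERD6-like group known from senescing leaves, rose 2.18-fold (1.13 ± 0.11; adjusted p = 7.06e-06), and its tandem relative SFP2 fell by 0.39 on the log2 scale (adjusted p = 0.00339). TMT2 and TMT1 are proton-coupled antiporters that load sugar into the vacuole. TMT2 was 1.82-fold lower (-0.86 ± 0.08; adjusted p = 4.24e-06). TMT1 was 1.19-fold lower (adjusted p = 0.0179), a call that was lost when arrays were anchored on spikes or hybridization controls (log2 -0.09 to -0.18) and without untreated replicate 3 or treated replicate 1 (log2 -0.23 and -0.22). The call of SFP2 was lost with anchoring on the hybridization controls (log2 -0.29). TMT3 did not pass, at -0.04 (adjusted p = 0.823).

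ATSPS4F, a sucrose phosphate synthase, rose by 0.58 ± 0.14 on the log2 scale (adjusted p = 0.00541), and did not pass without moderation of the variances. cwINV6, which the tables also name a fructan exohydrolase, was dim and stood at 0.14 (adjusted p = 0.167). It passed with arrays anchored on the brighter poly(A) spikes (0.29). The 7 loci without a matching symbol, of which AT1G62660 rose (0.82, adjusted p = 9.20e-06) and AT5G61520, AT2G20780 and AT1G34580 fell (-0.36, -0.33 and -0.27), are given by locus tag only. With the brighter poly(A) spikes or the hybridization controls as anchor the calls of all 3 decreases were lost (-0.12 to -0.26), that of AT1G34580 also with all spikes (-0.20), and that of AT5G61520 also without moderation and without untreated replicate 3 (-0.28). In all, 3 of the 14 rose, 6 fell and 5 did not pass, with a median difference of -0.16, beside 19.4% higher and 22.2% lower over all probe sets.

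**Figure D4:**
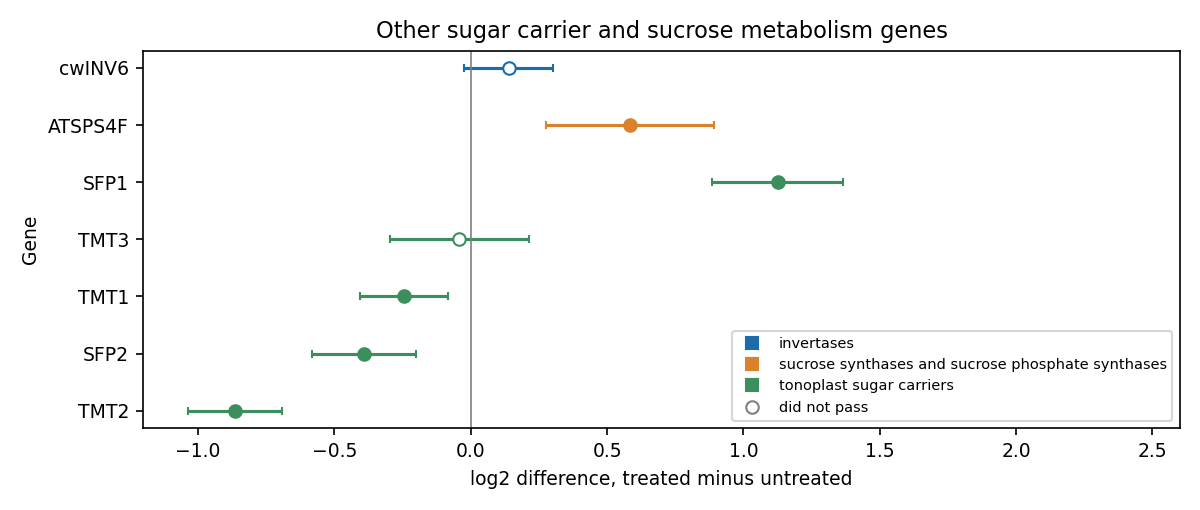
log2 difference, treated minus untreated (x axis), of the 7 other sugar carrier and sucrose metabolism genes that carry a matching symbol (y axis), with 95% intervals from limma. Filled points passed the test, and colours are the lists they come from; SFP1 stands at 1.13 and TMT2 at -0.86.

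Likeness of pattern was measured as the Euclidean distance between the 6 array values of 2 genes, each centred on its own mean, over 1556 other genes with a symbol. With 2 conditions, such a distance mostly follows the size of the change. Nearest to SWEET2 were the formate dehydrogenase gene FDH (distance 0.25), DPL1 of sphingolipid breakdown (0.30) and the auxin glucosyltransferase gene IAGLU (0.31). Nearest to SWEET1 were the alpha-tubulin gene TUA1 (0.13), the isocitrate dehydrogenase gene cICDH (0.19) and the ornithine aminotransferase gene DELTA-OAT (0.22). SWEET13 had more distant neighbours, the Aux/IAA gene IAA29 (0.30), ATLP-1 (0.50) and the expansin gene EXPA4 (0.51). SWEET4 lay nearest to the peptide gene RALFL34 (0.21), the DNA topoisomerase gene TOPII (0.25) and the alpha-tubulin gene TUA6 (0.28). For SWEET17 they were scpl26, ANK1 and TBL45 (0.12 to 0.14), for SWEET11 CYP71B5, EX1 and SEH1H (0.10 to 0.15), and for SWEET16 XPO1B, EXPA9 and UGT84B2 (0.17 to 0.19).

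The 7 calls were then set against other ways of scaling and fitting the arrays. Anchoring on the control transcripts moved every SWEET gene upward by the same amount. None of the 7 changed direction in any setting run, though some settings leave the differences unchanged by design. With all arrays kept, the other settings gave 2.18 to 2.36 for SWEET2 and 0.48 to 0.69 for SWEET11. When single arrays were left out, SWEET2 lay between 2.09 and 2.34, SWEET13 lay between -2.26 and -1.93 and SWEET4 between -1.79 and -1.55. SWEET16 lay between 0.27 and 0.47 in the same way, and passed each time.

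**Figure D5:**
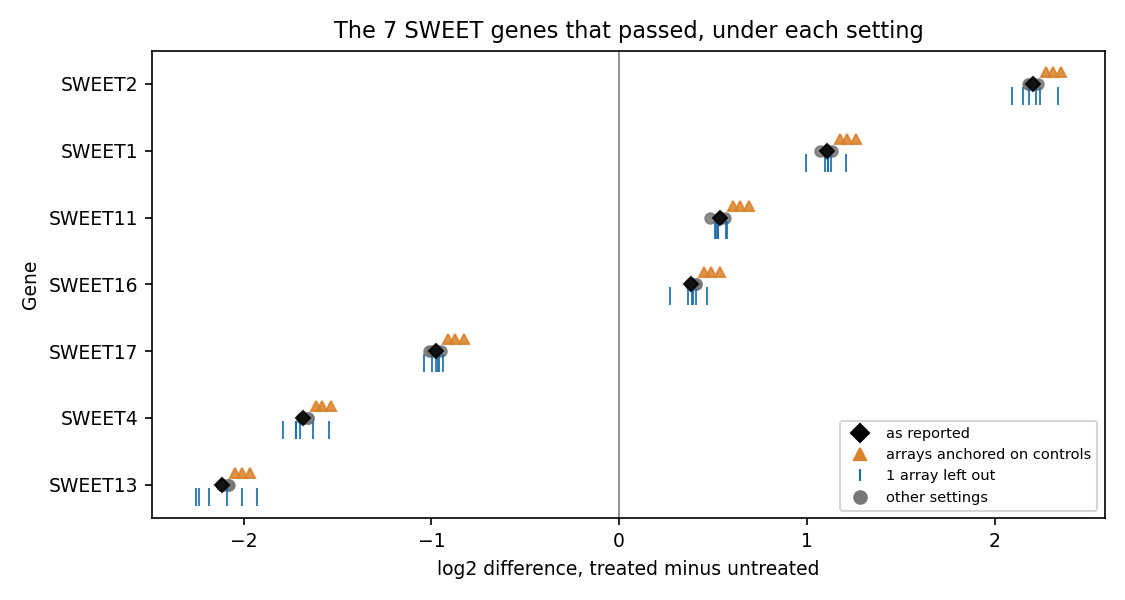
log2 difference, treated minus untreated (x axis), of the 7 SWEET genes that passed (y axis) as reported and under each other setting. Triangles are arrays anchored on control transcripts, ticks are fits without 1 array and circles are the remaining settings; each gene stays on its side of zero, and SWEET16 lies closest to it.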

How the data were processed

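Rosette RNA of 6 samples was hybridised to Affymetrix ATH1 arrays, and groups were read from the sample titles. The deposited log2 levels per probe set came from RMA (version not stated), according to the submitters' processing notes, and no source says whether further arrays entered that normalization. Of 22810 probe sets, 64 control sets were left out, and 22746 were tested with no filter. The table held 0 columns of other samples.

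Names came from the platform table, updated by gene ID through the RefSeq table of TAIR10.1, used for names and gene order only. The highest-mean probe set stood for a gene. Differences were fitted with limma 3.58.1 (lmFit and eBayes, two-sided) in R 4.3.3, and plots were drawn with matplotlib 3.10.9 in Python 3.11.15. The steps were run on simulated data with far fewer changed probe sets than passed here, which does not bear on the scaling of these arrays. The number of arrays limits precision, with a median SE of 0.09.

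Members, lists and alternatives were chosen with earlier results of these data known. Named genes are every SWEET gene, the largest changes of each list and the 3 genes nearest in pattern, printed for the 7 genes that passed; further list members were named after their values were seen. SAG29 and AtVEX1 were added by synonym. Of the lists, none of the sucrose carriers, plastid carriers, and trehalose phosphate synthases and hexokinases had a member measured here. Other settings tried were equal medians, repeated quantile normalization, anchoring on spiked controls, trend and robust or no moderation, array weights, an adjusted p of 0.01, a block for the replicate number, a filter on the dimmest 40% and fits without single arrays.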

Additional observations from a re-analysis of the deposited data

How the results depend on the processing

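The 4 increases and 3 decreases of SWEET genes kept their direction in all 17 alternatives, and calls changed in 2 cases. Direction could not change under the replicate block, the filter on the dimmest 40%, trend and robust or no moderation, or the threshold of 0.01. These settings leave the log2 differences as they were. Without moderation SWEET16 (0.38) did not pass (adjusted p = 0.0807), which left 3 increases. Without untreated replicate 3 SWEET14 passed, which gave 4 decreases; over the fits without 1 array it ranged from -0.27 to -0.14. The count of lower genes in the other sugar lists fell from 6 to 2 with the brighter poly(A) spikes as anchor, to 1 with the hybridization controls and to 3 at an adjusted p of 0.01. Over all probe sets, 4420 higher calls became 7394 with the brighter spikes, and 5059 lower calls became 3323 with them and 3185 with the hybridization controls. Whether replicate numbers mark a shared plate or day is not known. Deviations of same-numbered arrays correlated at 0.07, -0.06 and 0.000766, and those of differently numbered arrays at -0.11 to 0.10, which cannot decide this. With the replicate block 4 SWEET genes rose and 3 fell, and 9190 probe sets passed in place of 9479. No SWEET gene had a second probe set naming 1 gene, so that alternative gave no value, and leaving out the dimmest 40% of probe sets gave none for 6 dim members. Detection above background could not be set from these values.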
